A study of Brassica napus with 24 samples.

Results

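An early response of rapeseed leaves to a drying soil was described here from 6 RNA-seq libraries of the 24 in the series. Of these 6, 3 came from water-deficit (WD) plants and 3 from well-watered control plants, harvested 5 d after watering of the WD plants had been stopped. These libraries were chosen by their sample titles alone, and no expression value entered the choice. All plants were wild type Brassica napus of the cultivar Trezzor, grown in a greenhouse at a soil water content of 80% of field capacity (FC) until 30 days after sowing. Control plants stayed at that water content, whereas the WD plants of this harvest received no water until every pot had fallen below 50% FC. In both treatments only leaf blades that had developed after watering of the WD plants was stopped were sampled, and each replicate pooled a pair of plants of a single cultivar. The other 18 libraries came from plants harvested at 11 d (25% FC), 20 d (after a further stay at 25% FC) and 18 d (after a stay at 50% FC), each with its own controls. The 11 d time is that of the study's methods, whereas the labels give those libraries the same harvest date as the 5 d libraries.

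When roots meet drying soil, abscisic acid made from carotenoid precursors closes the stomata, growth of expanding leaves slows, and genes of osmotic protection, antioxidant defence and protein folding are commonly induced. Growing leaves also import mineral ions through membrane transporters, whose transcripts are known to answer to supply and demand. The comparison asked which of these genes already differed between WD and control leaves at the mild stage of the deficit.

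The 6 libraries held between 13263953 and 22242737 read pairs assigned to genes, with a median of 15316988. Reads that mapped to several places made up 8.13% to 8.77% of the pairs, so copies of a gene with near-identical sequence, which are frequent in this allotetraploid genome, could have lost reads. Control replicate 1 stood apart from its group: 8.83% of the genes averaging 10 or more normalized counts lay over 2-fold from the mean of the other controls, against 3.12% to 4.69% in the other 5 libraries. The 3 genes annotated as chlorophyll a/b binding proteins, which bind the pigments of the leaf's light-harvesting antennae, were detected in all 6 libraries, with summed levels of 924 to 1287 normalized counts in WD and 1204 to 1562 in control. In whole leaf blades, a change in the number of cells of a type and a change in RNA per cell cannot be told apart.

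Few genes passed the quasi-likelihood test at 5 d, and the number depended on the test. In the model of the 18 libraries from 5 d, 11 d and 20 d, which share 1 estimate of the spread between replicates, 18 of 54274 genes reached an adjusted p of 0.05 or less (edgeR quasi-likelihood F-test with Benjamini-Hochberg correction) and are said to be called, or 0.0332% of those tested. Of these, 12 (0.0221%) were higher and 6 (0.0111%) were lower in WD. The same model called 5447 genes (10%) at 11 d and 10241 genes (18.9%) at 20 d. By unadjusted p, 4047 genes (7.46%) passed 0.05 at 5 d. On the same 18 libraries edgeR's likelihood ratio test called 204 genes (0.376%) and DESeq2 called 214 (0.446%). The study itself reported more genes than 18 at this harvest. The quasi-likelihood calls needed all 6 libraries: without WD replicate 1 there were 4, and without any other library of this harvest there was 0. Without the replicate number in the model, 11 of the 18 were still called, and the other 7 are named as such below.

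The spread left after the replicate term was smaller in a fit of the 6 libraries of 5 d than in that of all 18. The biological coefficient of variation was 14.8% against 27.4%. These values are not like for like, as the term was fitted to 5 d alone in the former, with 2 residual degrees of freedom against 10. A fit of the 6 libraries alone, with the replicate number as a term, called 554 of 48930 genes (1.13%), of which 270 (0.552%) were higher and 284 (0.58%) were lower in WD. The 18 genes were all among these 554. Without the replicate term the same 6 libraries gave 140 calls (0.286%), all of them among the 554. In that fit, leaving out control replicate 1 gave 614 calls, WD replicate 1 gave 103, control replicate 3 gave 17, and each of the others gave 0. Genes named below from the 6-library fit rest on that fit, with 2 residual degrees of freedom, and did not pass in the 18-library model. Levels are given as normalized counts, which are reads scaled to the mean effective library size, and log2 fold changes are WD over control with their standard error (SE).

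Of the 12 genes that rose, 2 carried an annotation. BnaC06g37420D encodes a CP12-domain protein; in plants, CP12 is a small chloroplast protein that links Calvin cycle enzymes into an inactive complex in the dark. It was measured at 129, 142 and 133 normalized counts in WD replicates 1 to 3 and at 31.6, 31.5 and 30.5 in control. The 3 libraries of each treatment were close to each other and the treatments far apart, a 4.31-fold difference of means (log2 fold change 2.12, SE 0.28, adjusted p = 0.0281). BnaA06g09010D, annotated with a RING-type zinc finger, a domain found in many ubiquitin ligases, had 59.8, 57.7 and 72.6 normalized counts in WD against 9.21, 10.5 and 8.4 in control. Its groups were also well apart (log2 fold change 2.80, SE 0.36, adjusted p = 0.0281).

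The largest rise was that of BnaA09g34880D, for which no annotation was at hand, with 51.8, 50.5 and 64.9 normalized counts in WD and 3.95, 3.94 and 3.82 in control. The control values came from 3, 3 and 5 reads, so the fold (log2 fold change 3.81, SE 0.57, adjusted p = 0.0411) rests on a level close to the detection limit. BnaC08g26070D followed, at 49.5, 55.3 and 78.1 normalized counts in WD and 7.89, 5.25 and 5.35 in control (log2 fold change 3.31, SE 0.37, adjusted p = 0.0243). This was the smallest adjusted p among all genes at this harvest. BnaA09g01040D was measured at 564, 452 and 651 normalized counts in WD and 168, 104 and 164 in control, where the lowest WD library still exceeded the highest control (log2 fold change 1.94, SE 0.30, adjusted p = 0.042, and 0.175 without the replicate term). The other 7, BnaC03g73070D, BnaC06g26020D, BnaA07g24720D, BnaC09g52680D, BnaA07g16200D, BnaA03g24840D and BnaA02g07210D, had log2 fold changes of 1.30 to 1.73 and adjusted p-values of 0.0281 to 0.0421, and none of them was annotated. Of these 7, BnaC03g73070D, BnaC09g52680D and BnaA03g24840D were not called without the replicate term (adjusted p = 0.12 to 0.125).

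Among the 6 genes that fell, 2 had an informative annotation. BnaA09g30450D encodes a gibberellin-regulated protein, one of a family of small cysteine-rich peptides whose members are associated with cell growth. Its level was 44.9, 38.5 and 51.7 normalized counts in WD and 312, 198 and 160 in control, so that the highest WD library reached less than the lowest control (log2 fold change -2.24, SE 0.34, adjusted p = 0.042, and 0.0555 without the replicate term). BnaA09g29270D encodes a Dof-type zinc finger protein, a class of transcription factors particular to plants and green algae. It had 65.6, 51.7 and 44.0 normalized counts in WD against 201, 159 and 152 in control (log2 fold change -1.68, SE 0.25, adjusted p = 0.0411). Its call in the 18-library model was lost without the replicate term (adjusted p = 0.303).

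The called gene with the highest counts was BnaA03g42940D, which fell from 3238 ± 586 normalized counts in control to 694 ± 290 in WD (mean ± SD, n = 3). Its WD libraries were unequal, at 1004, 646 and 430 normalized counts, and its controls lay at 3874, 2722 and 3117 (log2 fold change -2.25, SE 0.30, adjusted p = 0.0281). BnaCnng26720D, listed without annotation, had 52.9, 49.3 and 60.5 normalized counts in WD and 300, 204 and 192 in control (log2 fold change -2.09, SE 0.31, adjusted p = 0.0411). The smallest changes were those of BnaA02g12280D, at 171 ± 10.5 normalized counts in WD and 360 ± 60.0 in control, and of BnaA01g36920D, at 783 ± 59.7 and 1542 ± 175. These amounted to log2 fold changes of -1.06 (SE 0.15) and -0.97 (SE 0.15), the latter not called without the replicate term (adjusted p = 0.0725). In each of the 18 genes the groups did not overlap, which held for 19.1% of all genes tested.

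**Figure D1:**
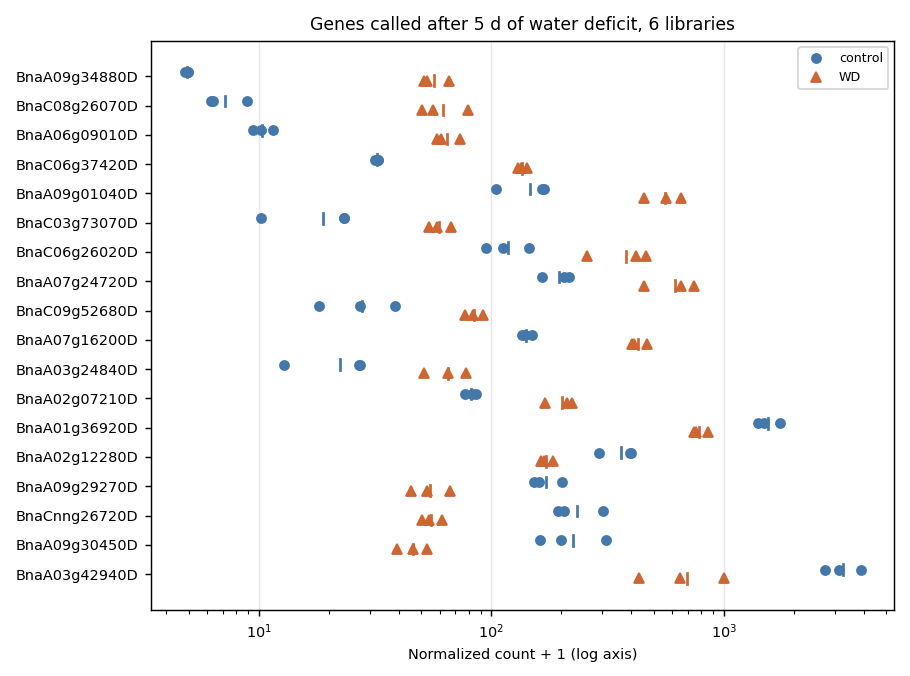
Normalized counts plus 1 (log axis) of the 18 genes called at 5 d, with a point for each of the 3 WD and 3 control libraries and a bar at each group mean. The groups are apart in every gene, from BnaA09g34880D, at 3.82 to 3.95 normalized counts in control and 50.5 to 64.9 in WD, to BnaA03g42940D, which was lower in all WD libraries.

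Whether the 18 genes went on to differ was read from the later harvests, whose libraries and controls were separate. The 11 d and 20 d libraries also entered the shared spread of the model that called the 18, so passing there was no independent check. The 554 genes of the 6-library fit, called without those libraries, passed in the same direction in 44.77% at 11 d and 40.25% at 20 d. At 11 d all 18 kept their direction and 17 passed the test, where 10% of all genes did, and at 20 d the counts were again 18 and 17, where 18.9% of all genes passed. The gene that did not pass was BnaA02g12280D at both harvests, with log2 fold changes of -0.08 and -0.23. At 18 d, under 50% FC, 16 kept their direction, 11 of which passed the test in a model of all 24 libraries, where 5.5% of genes did. BnaA02g12280D was higher in WD at that harvest (log2 fold change 0.56, adjusted p = 0.0421), and BnaA01g36920D, at 0.29, did not pass.

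The size of the response differed by harvest in 2 of the 18. BnaA09g30450D, the gibberellin-regulated protein gene, fell further at 20 d (log2 fold change -4.67), and the difference from 5 d was -2.43 on the log2 scale (adjusted p = 0.0463, edgeR interaction test). In BnaA02g12280D the response at 18 d exceeded that at 5 d by 1.62 (adjusted p = 0.02). The 2 genes of largest rise were high at each harvest: BnaA09g34880D had log2 fold changes of 3.81, 3.31, 3.15 and 3.48 at 5 d, 11 d, 20 d and 18 d, and BnaC08g26070D had 3.31, 3.57, 4.71 and 3.35. The CP12 gene BnaC06g37420D lay between 2.12 and 2.79 at the 4 harvests, and the Dof gene BnaA09g29270D between -1.68 and -2.11. None of these differences between harvests passed the test.

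**Figure D2:**
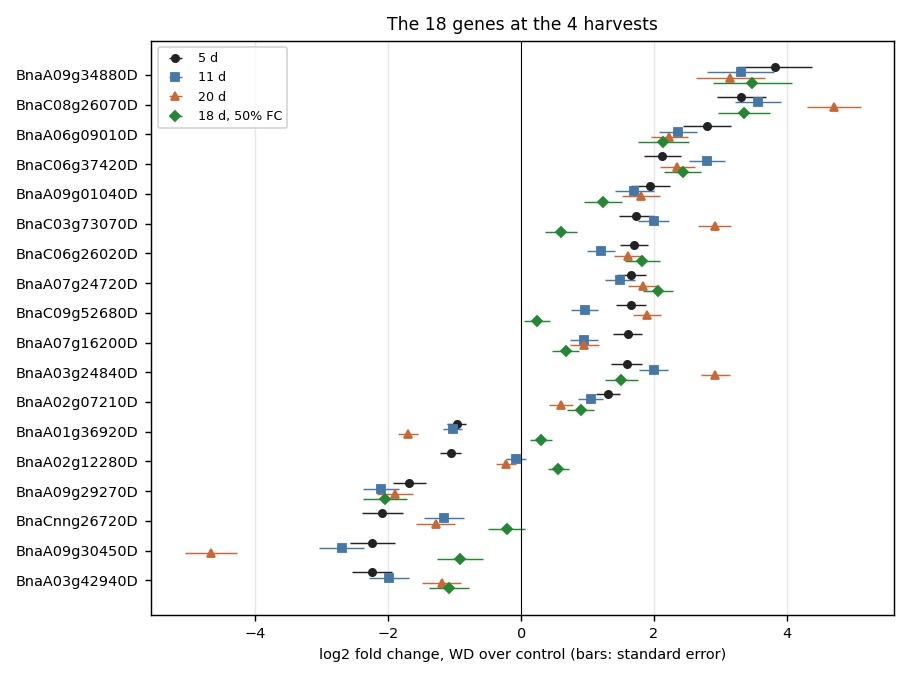
Log2 fold change of WD over control for the 18 genes at 5 d, 11 d, 20 d and 18 d (50% FC), each from 3 WD and 3 control libraries, with bars for the standard error. Points at 11 d and 20 d lie on the same side of 0 as at 5 d in all 18 genes, and at 18 d in 16, with BnaA02g12280D at 0.56 and BnaA01g36920D at 0.29 on the other side.

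Over all tested genes, 0 responses differed between 11 d and 5 d, although 5450 (10%) were under 0.05 by their unadjusted p and edgeR's likelihood ratio test called 647. Between 20 d and 5 d, 384 responses (0.708%) differed, 279 (0.514%) with the higher value at 20 d, and this number fell to between 25 and 117 whichever library of 5 d was left out. Between 18 d and 5 d there were 2 (0.00365%), BnaA02g12280D and BnaC08g00970D. The 554 genes of the 6-library fit gave these counts: 491 kept their direction at 11 d and 248 of these passed the test there, 401 and 223 did so at 20 d, and 405 and 162 at 18 d, while 3, 27 and 13 passed in the opposite direction.

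The 270 rising genes of the 6-library fit had a median log2 fold change of 1.11 and 164 of them were changed 2-fold or more, and 129 of the 284 falling genes were. Its largest rises with separate groups included 2 genes of the AP2/ERF class, transcription factors that include regulators of ethylene and dehydration responses. BnaA04g25900D had 33.4, 30.0 and 51.7 normalized counts in WD and 3.95, 10.5 and 5.35 in control (log2 fold change 2.60, adjusted p = 0.04 in the 6-library fit). BnaC04g49870D, at 19.6, 16.8 and 44.0 against 5.26, 1.31 and 3.82, was low in control and high chiefly in WD replicate 3 (log2 fold change 2.98, adjusted p = 0.0382). Neither gene passed without the replicate term.

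The C2H2 zinc finger gene BnaC07g11700D rose from 6.58, 5.25 and 3.82 normalized counts in control to 44.9, 32.4 and 39.6 in WD (log2 fold change 2.93, adjusted p = 0.0195), and it passed without the replicate term as well (adjusted p = 0.0209). BnaA02g15920D, not annotated, had 321, 990 and 733 normalized counts in WD and 68.4, 102 and 102 in control (log2 fold change 2.83, adjusted p = 0.0083). The other 6 were BnaC04g16080D, BnaC09g46650D, BnaA06g13740D, BnaA01g34910D, BnaC06g35730D and BnaA07g31860D, with log2 fold changes of 2.69 to 4.41, and of these only BnaC06g35730D passed without the replicate term. In BnaC04g16080D the controls held 9.21, 0 and 0 normalized counts, so that its fold has no firm size. Control reads were also few in BnaC09g46650D (0, 1 and 6), BnaA06g13740D (2, 3 and 4) and BnaA01g34910D (4, 2 and 4). Their folds thus rest on levels close to the detection limit.

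Control replicate 1 was high in several of the largest falls. BnaC05g09910D, of a family of unknown function, had 409, 28.9 and 18.3 normalized counts in control and 5.75, 6.01 and 3.3 in WD. BnaC03g48070D, with a senescence/spartin-associated domain, had 604, 81.4 and 97.8 against 32.2, 26.4 and 27.5. BnaA03g21360D, of the GH3 family, enzymes that join auxin or jasmonate to amino acids, had 159, 38.1 and 31.3 against 18.4, 12.0 and 7.7. In all 3 the other controls also lay above all WD libraries, but the rule for naming these genes required this. The log2 fold changes of -4.50, -2.73 and -2.39 depend on control replicate 1, and none passed without the replicate term (adjusted p = 0.175, 0.133 and 0.163).

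The controls of BnaA03g17720D and BnaC05g20350D were closer to each other. BnaA03g17720D, of the polyketide cyclase/dehydrase family, a fold shared with abscisic acid receptors among other proteins, had 88.1, 78.8 and 66.4 normalized counts in control and 16.1, 20.4 and 12.1 in WD (log2 fold change -2.25, adjusted p = 0.0135, and 0.0206 without the replicate term). In the 18-library model its adjusted p was 0.06, just outside the threshold. BnaC05g20350D, a ureide permease gene, whose family carries allantoin and related nitrogen compounds, had 78.9, 67.0 and 51.2 in control and 17.3, 15.6 and 9.9 in WD (log2 fold change -2.19, adjusted p = 0.0161). BnaA06g39660D, BnaC03g75380D, BnaA10g24060D, BnaAnng00520D and BnaA09g04470D completed the 10, at -2.25 to -2.95. BnaA06g39660D and BnaC05g20350D passed without the replicate term and the last 4 of those named did not. Control replicate 1 was again well above the other controls in BnaA10g24060D (77.6, 17.1 and 13.0), BnaAnng00520D (142, 44.6 and 76.4) and BnaA09g04470D (56.5, 11.8 and 25.2). The WD libraries held only 3, 3 and 1 reads in BnaC03g75380D and 6, 1 and 4 in BnaA10g24060D, close to the detection limit.

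**Figure D3:**
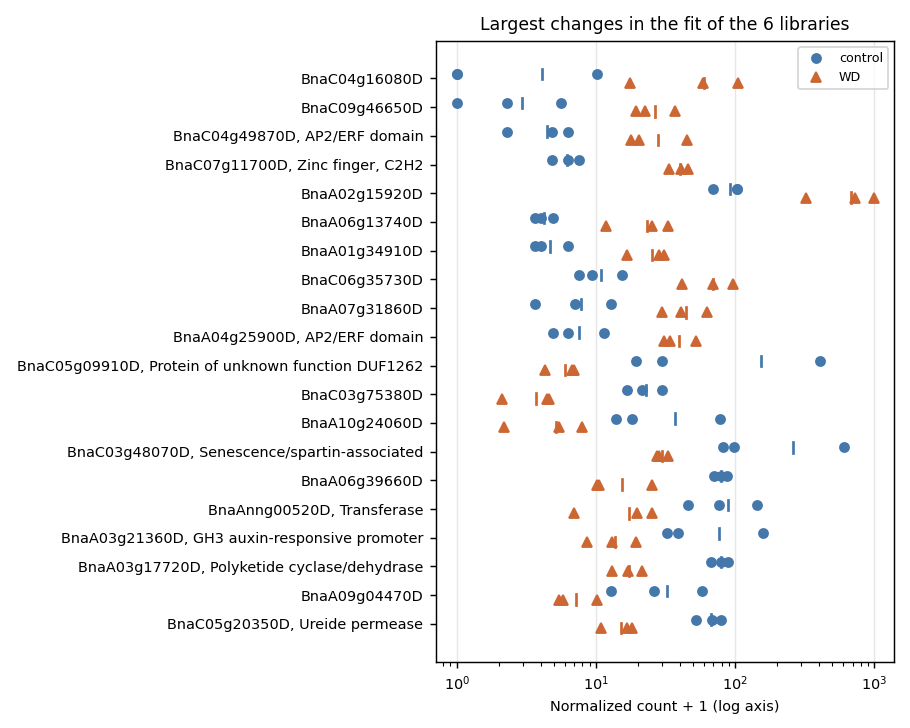
Normalized counts plus 1 (log axis) of the 10 largest rises and 10 largest falls called in the fit of the 6 libraries alone, with a point per library and a bar at each group mean. In BnaC05g09910D and BnaC03g48070D a single control library, at 409 and 604 normalized counts, lies far above the other controls. These also lie above all WD libraries, as the rule for naming the genes required.

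Annotated gene groups were taken from the domain names of a list of 1999 genes, which is part of a longer list that the study drew from these same samples, so that their direction is no independent evidence. Over all genes tested the median log2 fold change was close to 0 (-0.00478), with WD above control in every library for 9.18% of genes and below for 9.96%. Of the 538 listed genes in the groups described here, 3 were called in the 18-library model, namely the CP12, Dof and gibberellin-regulated genes above, and 46 of the 384 tested in the 6-library fit, where 1.13% of all genes were called. Over the whole list of 1999, that fit called 66 rises and 53 falls among 1467 genes tested. In that list WD lay above control in every library for 13.4% of genes and below for 15.3%. Without the replicate term 17 of the 384 were called. The likelihood ratio test, which called 0.376% of all genes, and DESeq2, which called 0.446%, called 25 and 24 of them.

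Protein folding genes were mostly higher in WD. Of 34 heat shock proteins and chaperones, which keep other proteins from aggregating, 28 had a positive log2 fold change, the median was 0.75, and in 16 (47.1%) all WD libraries exceeded all controls. In the 18-library model 0 of 34 passed and 14 were under 0.05 by their unadjusted p, while in the 6-library fit 6 of the 26 tested rose and 0 fell. The DnaJ-domain gene BnaC06g40110D, of a class of co-chaperones of Hsp70, had 475, 536 and 627 normalized counts in WD and 159, 160 and 197 in control (log2 fold change 1.68, adjusted p = 0.0083 in the 6-library fit). The WD libraries were all well above the controls. BnaA09g55990D, also with a DnaJ domain, had 128, 87.7 and 113 against 35.5, 22.3 and 27.5 (log2 fold change 1.96, adjusted p = 0.0126).

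The small heat shock protein gene BnaA08g00950D had 131, 67.3 and 75.9 normalized counts in WD and 26.3, 9.19 and 16.8 in control, with replicate 1 the highest in both groups (log2 fold change 2.39, adjusted p = 0.0126). Its class of 11 genes was mixed: 8 log2 fold changes were positive and 3 negative, from -4.69 to 2.50. All WD libraries lay above all controls in 5 of the 11 and below in 1. The others that rose were the DnaJ genes BnaA09g43710D and BnaC07g45950D and the ClpA/B chaperonin gene BnaA07g31420D, none of which passed without the replicate term (adjusted p = 0.0512 to 0.0569). None of the 6 Hsp70 genes passed in either fit, although all WD libraries lay above all controls in 4 of them, and their median was 0.63. Heat shock factors, the transcription factors that switch on chaperone genes, numbered 6 with a median of 1.61. In the 6-library fit 2 of the 3 tested rose, BnaC03g52080D from 25.0, 15.8 and 14.5 normalized counts in control to 88.6, 75.7 and 73.7 in WD (log2 fold change 2.14, adjusted p = 0.0139) and BnaA06g21470D from 17.1, 7.88 and 7.64 to 49.5, 40.9 and 31.9 (1.94, adjusted p = 0.0397). Without the replicate term the former was called and the latter was not (adjusted p = 0.0735).

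Growth genes moved in both directions. The 10 genes of the dormancy/auxin-associated family, whose transcripts are known from dormant buds and resting tissues, all had a positive log2 fold change, with a median of 1.30, and in 9 of the 10 all WD libraries exceeded all controls. None passed in the 18-library model, where 8 were under 0.05 by their unadjusted p, and 5 rose in the 6-library fit. BnaC03g30720D had 734, 949 and 976 normalized counts in WD and 308, 303 and 302 in control (log2 fold change 1.55, adjusted p = 0.009 in that fit). BnaA03g57280D had 159, 244 and 272 against 52.6, 69.6 and 81.0 (log2 fold change 1.73, adjusted p = 0.009). BnaC03g18820D, BnaA09g27350D and BnaC02g27240D rose by 0.84 to 1.13 on the log2 scale. Of the 5, BnaC03g18820D and BnaA09g27350D did not pass without the replicate term.

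The second gibberellin-regulated gene, BnaC06g36410D, was measured at 1263, 924 and 858 normalized counts in WD and 2317, 1564 and 1552 in control, and it fell in the 6-library fit (log2 fold change -0.82, adjusted p = 0.0208). Among 5 expansin genes, whose products loosen cell walls, BnaC03g22750D alone passed in that fit, at 199, 267 and 223 normalized counts in WD and 73.6, 74.8 and 134 in control (log2 fold change 1.31, adjusted p = 0.04). Of 11 genes with a pectinesterase domain, BnaCnng78530D, a pectinesterase inhibitor gene, fell, at -0.65 on the log2 scale (adjusted p = 0.0421). None of these 3 genes passed without the replicate term (adjusted p = 0.132, 0.0799 and 0.0901).

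Of the 11 chloroplast genes, 4 rose and 2 fell in the 6-library fit. Besides the CP12 gene, these included BnaC09g01160D, named for the light-regulated Lir1 protein, which is known from the thylakoids of leaves, at 813, 1646 and 1253 normalized counts in WD and 398, 545 and 382 in control (log2 fold change 1.47, adjusted p = 0.0128, and 0.0605 without the replicate term). BnaA09g52250D, whose model joins a Lir1 domain to a protein kinase domain, rose from 371, 289 and 380 to 920, 1312 and 1167 (1.71, adjusted p = 0.0126). The 3 chlorophyll a/b binding genes parted: BnaC08g16790D rose from 107, 93.2 and 97.8 to 208, 198 and 218 (1.08, adjusted p = 0.0212), BnaCnng14300D fell from 1174, 985 and 890 to 819, 485 and 519 (-0.76, adjusted p = 0.0425, and 0.177 without the replicate term), and BnaC02g44590D, at 0.11, did not pass.

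BnaCnng26710D, with the copper-binding domain of plastocyanin-like electron carriers, fell from 12957, 13140 and 12208 normalized counts in control to 6904, 5889 and 6356 in WD, an even difference across libraries (log2 fold change -0.99, adjusted p = 0.0165). The other CP12 genes, BnaA09g39860D and BnaC08g32210D, had overlapping groups, with log2 fold changes of 0.53 and 0.39 that did not pass in either fit.

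Transcription factors gave 1 call in the 18-library model among 136 genes and 2 rises and 6 falls among the 98 tested in the 6-library fit. Dof genes stood on the lower side: 8 of 9 had a negative log2 fold change, the median was -0.48, and in 6 all WD libraries lay below all controls. Besides BnaA09g29270D, BnaC05g50980D fell in the 6-library fit, from 135, 131 and 128 normalized counts to 46.0, 56.5 and 47.3 (log2 fold change -1.38, adjusted p = 0.0212). The remaining falls were those of 2 SANT/Myb genes, BnaC05g00840D and BnaAnng17890D, of the basic-leucine zipper gene BnaA03g34610D and of the AP2/ERF gene BnaCnng08620D, at -0.64 to -1.22. Of the 8 called in the 6-library fit, both Dof genes passed without the replicate term and the other 6 did not. None of the 28 WRKY and 22 NAM-domain genes passed in the 18-library model, nor did any of the 12 and 14 of them that were tested in the 6-library fit.

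Among hormone enzymes, the 5 carotenoid oxygenase genes, a family that includes the enzymes opening abscisic acid synthesis, had positive log2 fold changes of 0.54 to 0.99. The other 5 genes of the group had lower values in every WD library than in any control. Of these, the GH3 genes BnaA03g21360D and BnaCnng59530D had log2 fold changes of -2.56 and -2.00 in the 18-library model, and the lipoxygenase genes BnaC02g15950D and BnaA02g11430D, whose enzyme class opens jasmonate synthesis, had -0.42 and -0.47. BnaA09g19550D, an allene oxide cyclase gene of the same pathway, had 1.15, 0 and 1.1 normalized counts in WD and 28.9, 5.25 and 6.11 in control. None of the 10 passed in the 18-library model, and BnaA03g21360D passed in the 6-library fit. BnaC01g11550D also passed there, at 3915, 3174 and 2030 normalized counts in WD and 2261, 1262 and 1194 in control, but its groups overlapped and it did not pass without the replicate term (adjusted p = 0.198). Both protein phosphatase 2C genes that passed, BnaA05g27660D and BnaC05g41830D, had log2 fold changes of 0.88 and 0.87 there, and neither passed without the replicate term (adjusted p = 0.223 and 0.242). This enzyme class includes brakes of abscisic acid signalling.

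Both catalase genes, whose product breaks down hydrogen peroxide in peroxisomes, rose in the 6-library fit. BnaC07g15280D had 8958, 8860 and 8125 normalized counts in WD and 5028, 5529 and 5033 in control (log2 fold change 0.75, adjusted p = 0.0287), and BnaA08g21730D had 4634, 5075 and 4523 against 3004, 3248 and 3296 (0.59, adjusted p = 0.0497). The groups were narrow and apart in each, but neither gene passed without the replicate term (adjusted p = 0.063 and 0.102). A glutathione S-transferase gene, BnaA07g28460D, fell, with control replicate 1 high again at 163 normalized counts beside 36.8 and 47.3, and its call was lost without the replicate term (adjusted p = 0.142). The redox group of 27 genes had a median of -0.47.

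Genes named for water stress gave few calls. Of 29, 0 passed in the 18-library model and 4 were under 0.05 by their unadjusted p, and the median was 0.02. Neither the 18 late embryogenesis abundant genes nor the 7 dehydrin genes, which protect cells during desiccation, gave a call in the 18-library model, and the 8 and 6 of them that were tested in the 6-library fit gave none there. BnaA04g00450D, a universal stress protein gene, rose in the 6-library fit, from 48.7, 49.9 and 57.3 normalized counts to 147, 136 and 139 (log2 fold change 1.44, adjusted p = 0.0184). Senescence regulators numbered 5, with a median of 1.31 and 2 rises in that fit, BnaCnng49210D (1.36, adjusted p = 0.036) and BnaCnng02970D (1.16, adjusted p = 0.0161), of which the second was lost without the replicate term (adjusted p = 0.0966).

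The proline and amino acid group held 10 genes, of which BnaC09g06780D rose. It encodes an acyl-CoA oxidase, an enzyme of fatty acid breakdown in peroxisomes, and had 190, 211 and 205 normalized counts in WD and 129, 97.2 and 99.3 in control (log2 fold change 0.92, adjusted p = 0.0466 in the 6-library fit, and 0.0545 without the replicate term). The only proline dehydrogenase gene had a log2 fold change of -1.22 and overlapping groups. Of 43 sugar genes, the alpha-amylase gene BnaA07g32360D, whose product degrades starch, fell from 243, 173 and 225 normalized counts to 110, 92.5 and 88.0 (-1.13, adjusted p = 0.0252). Kinase and phosphatase genes gave 3 rises and 2 falls among 133 tested, the falls being BnaCnng02430D and BnaC06g34470D. Of the 5, BnaA09g52250D alone passed without the replicate term.

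**Figure D4:**
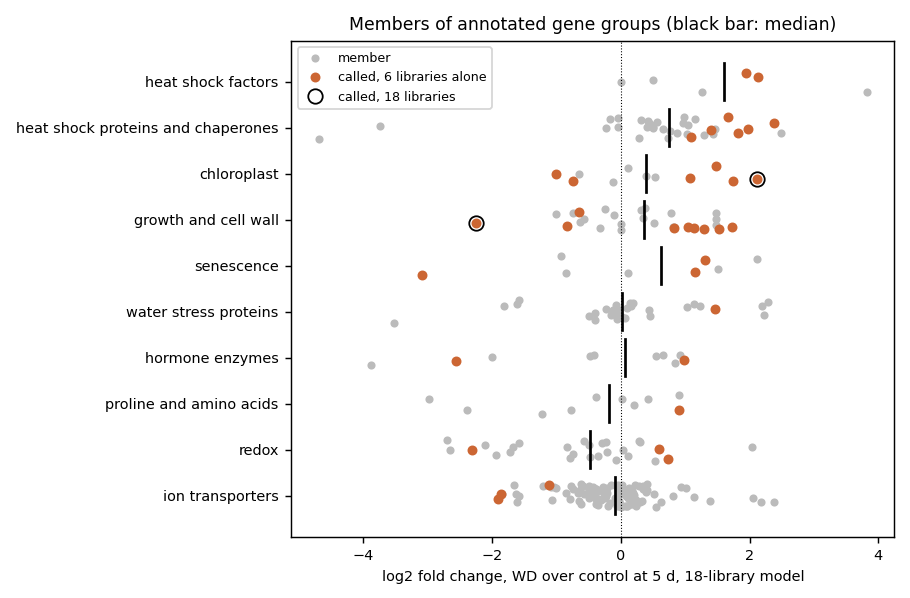
Log2 fold change at 5 d in the 18-library model for each member of the annotated groups, with a black bar at the group median, orange for genes called in the 6-library fit and a ring for those called in the 18-library model. Heat shock factors and chaperones lie mostly above 0, with medians of 1.61 and 0.75, whereas ion transporters centre at -0.09.

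Ion transporter genes were read from a list of 114 that the study also chose on these samples. In the 18-library model 0 of 114 passed at 5 d, 13 were under 0.05 by their unadjusted p, and the likelihood ratio test and DESeq2 called 3 and 4. Unadjusted p was under 0.05 in 4047 of all 54274 genes and in 341 of the list of 1999. Negative log2 fold changes were found in 68 of 114, against 27461 of all genes and 1098 of the 1999. The transporter median of -0.09 turned to 0.06 without control replicate 1 and to 0.03 without WD replicate 3. All WD libraries lay below all controls in 18 transporter genes (15.8%) and above in 7 (6.14%). These shares were 9.96% and 9.18% over all genes, and 15.3% and 13.4% in the list of 1999. The 6-library fit gave 3 falls among 86 tested and 0 rises, beside 53 falls and 66 rises among 1467 in the list of 1999.

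NPF6.3 is the dual-affinity nitrate transporter and sensor known from Arabidopsis thaliana as NRT1.1. Its copy BnaC08g15370D had 127, 69.7 and 61.6 normalized counts in WD and 431, 257 and 283 in control, and BnaA08g24900D had 92.0, 46.9 and 34.1 against 288, 192 and 148. Replicate 1 was the highest of its group in both copies and both treatments, and the groups did not overlap. The log2 fold changes were -1.91 (SE 0.32, adjusted p = 0.0692) and -1.86 (SE 0.41, adjusted p = 0.213) in the 18-library model, and both copies fell in the 6-library fit (adjusted p = 0.009 and 0.0112). Without the replicate term the first copy passed (adjusted p = 0.0448) and the second did not (adjusted p = 0.0799). On the 18 libraries the likelihood ratio test called both copies (adjusted p = 3.9e-05 and 0.0062), as did DESeq2 (adjusted p = 3.0e-05 and 0.0054). BnaA09g47380D had a log2 fold change of -1.21 (adjusted p = 0.0511 in the 6-library fit), also with groups apart. The fourth copy, BnaC05g09690D, went the other way at 0.34. All its WD libraries lay above all controls, at 24.2, 22.8 and 23.1 normalized counts against 15.8, 22.3 and 17.6, without a call in either fit.

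For phosphate, the mitochondrial phosphate carrier gene MPT3, BnaC09g43140D, fell in the 6-library fit, from 921, 698 and 645 normalized counts to 451, 204 and 395 (log2 fold change -1.14, adjusted p = 0.0428, and 0.13 without the replicate term). The 8 copies of PHO1;H3, related to the phosphate exporter PHO1, gave no call, and BnaA06g38150D, at 108, 108 and 97.9 normalized counts in WD against 73.6, 67.0 and 66.4, lay higher in all WD libraries (log2 fold change 0.63, adjusted p = 0.907). BnaC08g39950D lay lower in all WD libraries, at 48.3, 44.5 and 27.5 against 61.8, 56.5 and 54.2 (-0.48, adjusted p = 0.971). The 5 copies of PHT1-4, a phosphate uptake gene, stayed under 15 normalized counts in all 6 libraries.

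The 4 boron transporter genes all had lower values in WD in every library. BOR1, which exports borate from cells, had the copy BnaA04g26910D at 81.7, 75.7 and 99.0 normalized counts in WD and 372, 310 and 119 in control, where control replicate 3 lay near the WD libraries (log2 fold change -1.58, SE 0.34, adjusted p = 0.193). The other copy, BnaC04g51480D, had 24.2, 19.2 and 15.4 against 47.3, 38.1 and 38.9 (-1.07, SE 0.31, adjusted p = 0.395). Both BOR2 copies, BnaAnng31830D and BnaC04g21390D, were at -0.50 and -0.66. None passed in either fit, but the likelihood ratio test and DESeq2 on the 18 libraries called BnaA04g26910D (adjusted p = 0.0075 and 0.0065).

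Cation exchangers were likewise lower in WD without a call in either fit. NHX4, a vacuolar sodium/proton exchanger, was measured through BnaA05g30980D at 10.4, 13.2 and 9.9 normalized counts in WD and 32.9, 30.2 and 41.2 in control (log2 fold change -1.63, SE 0.53, adjusted p = 0.464, and 0.0621 in the 6-library fit). The CCX1 copies BnaCnng75720D and BnaA10g16940D, of a cation/calcium exchanger, had log2 fold changes of -1.04 and -1.08, with 72.5, 33.6 and 69.3 normalized counts in WD against 145, 123 and 93.9 in the former. The genes of HKT1 (sodium), MOT1 (molybdate) and VTL1 (iron) had overlapping groups, all at under 20 normalized counts. Their log2 fold changes of -0.65 to -1.84 gave no call, and HKT1 had an unadjusted p of 0.032 in the 18-library model (quasi-likelihood F-test).

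**Figure D5:**
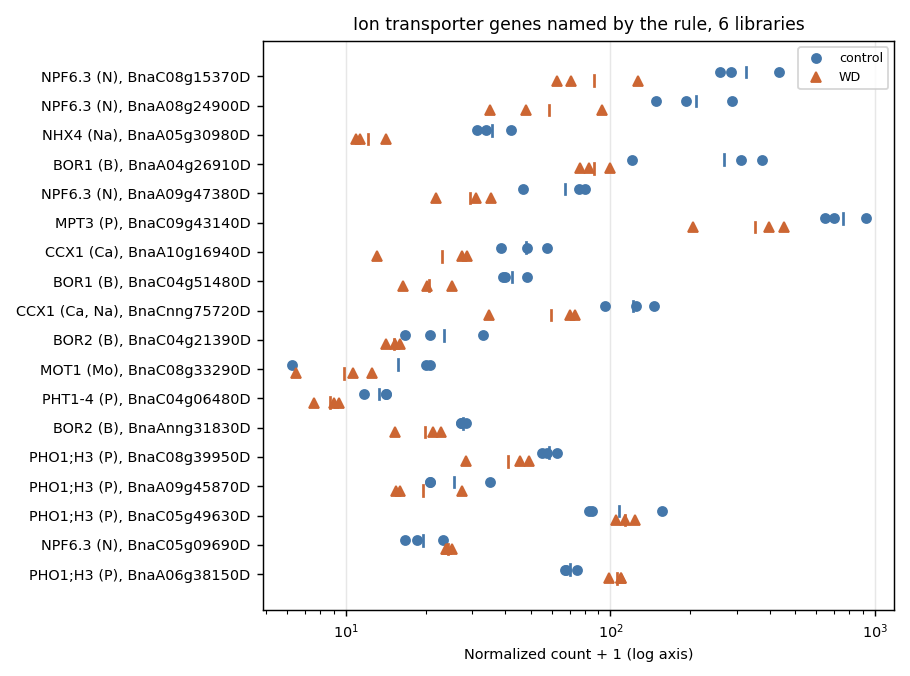
Normalized counts plus 1 (log axis) of the named ion transporter genes averaging 10 or more, with a point for each of the 3 WD and 3 control libraries and a bar at each group mean. The NPF6.3 copies on top are apart between treatments, at 61.6 to 127 against 257 to 431 for BnaC08g15370D, whereas the difference is smaller in the BOR2 copies, at log2 fold changes of -0.50 and -0.66.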

How the data were processed

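Leaf mRNA was sequenced as stranded read pairs. The authors trimmed the reads, removed rRNA reads, and mapped and counted them per gene with STAR on the Genoscope annotation V5 of the Brassica napus genome. The deposited counts are whole reads per gene, not normalized, and the reverse-strand column was used without its summary lines. Gene positions and sequences are not given here. Following the study's methods, only genes reaching 0.6 CPM in 3 or more libraries were analysed. Counts were scaled by TMM and fitted with edgeR 4.0.16 (R 4.3.3) to treatment by harvest plus the replicate number, over 18 libraries (24 for 18 d), with the quasi-likelihood test, although the study's choice of edgeR test was not stated. P-values were adjusted over all tested genes. The code was tested on simulated data. Named were all 18 called genes, the 10 largest rises and 10 largest falls of the 6-library fit averaging 10 or more normalized counts, separate groups and the same direction in each replicate number, the copies of selected transporters, and up to 4 called genes of each family. BnaC08g00970D, the further members named under each family and all statements on single domains were chosen after their values were seen. Members and lists were chosen with earlier results of these data known. The transporter and domain names come from the study's gene lists, the second held in part. Alternatives were DESeq2 1.42.0, its size factors, the likelihood ratio test, other filters, unstranded counts, other sets of libraries, no replicate term and leaving out each library. The sources call the replicates biological. P-values cover the spread between these libraries only. The 11 d time comes from the study's methods, while the labels date that harvest as that of 5 d. Figures were drawn with matplotlib 3.10.9.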

Additional observations from a re-analysis of the deposited data

Results flagged for a closer look

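In 5 named genes the response at a later harvest differed from that at 5 d in edgeR's interaction test, each difference being the later log2 fold change minus that at 5 d. The response of BnaA09g30450D, the gibberellin-regulated protein gene, was lower at 20 d by -2.43 (adjusted p = 0.0463). That of BnaA03g57280D, a dormancy/auxin-associated gene, differed by -1.96 (adjusted p = 0.0475) and was 1.73 at 5 d and -0.22 at 20 d on the log2 scale. For the expansin gene BnaC03g22750D the difference was -2.53 (adjusted p = 0.0274), and for BnaC03g48070D, with the senescence/spartin-associated domain and a single high control library at 5 d, it was 4.70 (adjusted p = 0.0455). The response of BnaA02g12280D at 18 d exceeded that at 5 d by 1.62 (adjusted p = 0.02). Groups of 3 libraries are too small for a test of single outlying values.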

How the results depend on the processing

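The count of genes called at 5 d depended on the fit. It was 18, with 12 higher and 6 lower in WD, and stayed within 1.5 times of that without the replicate block (16), with DESeq2 size factors, other filters, unstranded counts, 5 d with 18 d, and a block within each harvest. Yet 11 of the 18 genes were still called without the block, 7 with 5 d and 18 d, and 8 with a block within each harvest. It was 204 (116 higher, 88 lower) by the likelihood ratio test, 214 (118, 96) by DESeq2, 37 (23, 14) with all 24 libraries, 1 (1, 0) with 5 d and 11 d, and 110 (62, 48) with 5 d and 20 d. On the 6 libraries alone it was 554 (270, 284) with and 140 (84, 56) without the block, 848 (404, 444) by DESeq2 and 2928 (1464, 1464) by the likelihood ratio test. Leaving out a library gave 0 to 4 calls (0 to 4 higher, 0 lower) in the 18-library model, and 0 to 614 (0 to 424 higher, 0 to 190 lower) in the 6-library fit without the block, with 614 without control replicate 1, 103 (80 higher, 23 lower) without WD replicate 1, 17 (7 higher, 10 lower) without control replicate 3 and 0 without any of the others. Directions of the 18 genes were the same in all fits that tested them.

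The block was used because the study's model has it. Same-numbered libraries at 5 d deviated together with correlations of 0.265, 0.126 and 0.024, and 3 of 6 correlated best with their own number. With 3 libraries per group, these values cannot decide whether the numbers pair the samples.

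Transporter calls, 0 in the 18-library model, were 3 by the likelihood ratio test, 4 by DESeq2, 1 with no replicate block, 2 with 5 d and 18 d, 1 with all 24 libraries, 3 with 5 d and 20 d and 2 with a block within each harvest. On the 6 libraries alone they were 3 with and 1 without the block, 3 by DESeq2 and 15 by the likelihood ratio test, and 0 to 2 with a library left out. The 3 calls among family genes became 25, 24, 1 and 16 by the likelihood ratio test, by DESeq2, without the block and with 5 d and 20 d, and 0 with 5 d and 11 d. On the 6 libraries alone they became 46 with and 17 without the block, 60 by DESeq2 and 116 by the likelihood ratio test, and 0 to 40 with a library left out. The transporter median ran from -0.33 to 0.06 and the chaperone median from 0.56 to 0.91 with a library left out.

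Responses that differed from 5 d numbered 0 at 11 d and 647 by the likelihood ratio test, 384 at 20 d, 2602 by the likelihood ratio test, 814 with all 24 libraries and 25 to 117 with a library left out, and 2 at 18 d, 479 by the likelihood ratio test, 557 in 12 libraries and 1 to 4 with a library left out.

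Some transporter genes changed sign. BnaA06g38130D was at -0.0325 by the likelihood ratio test and -0.0367 by DESeq2, BnaA04g22280D at -0.111 and -0.014, and BnaA05g06230D at -0.0275 with no replicate block, -0.0961 with 5 d and 18 d, and -0.0575 with a block within each harvest. With a library left out, log2 fold changes ran from -0.740 to 1.18 in BnaA06g38130D, -1.55 to 2.55 in BnaA04g22280D, -0.793 to 0.936 in BnaA05g06230D, -0.463 to 1.26 in BnaAnng37580D, -1.24 to 0.438 in BnaA09g45890D, -1.0 to 0.330 in BnaC04g46050D and -0.190 to 0.535 in BnaC05g49630D (-0.0228 and -0.0625 in the 6-library fit without control replicate 2 or 3). The causes of these shifts were not tested.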
